A study of Homo sapiens with 6 samples.

Results

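The genes described here are 10 transcription factor genes of the ATF4 axis: ATF4, ATF3, ATF5, ATF2, DDIT3, CEBPB, CEBPG, CEBPD, NUPR1 and JDP2. They were taken by gene symbol from a table of 61806 genes, in which each symbol had 1 row, so 10 of 10 were found. All 10 passed the filter on low values (a mean of at least 0.1 FPKM over the 6 samples, passed by 24200 genes), NUPR1 only through the PB samples. FPKM scales a gene's fragments by its exon length and by the size of the library, so a comparison between genes rests on the exon length assigned to each. The samples were 3 control samples and 3 samples treated with 20 μM Parishin B (PB, labelled ParishinB) for 24 h, all from the mesenchymal, triple-negative human breast cancer line MDA-MB-231. PB is a phenolic compound of Gastrodia elata that the study examined as an inhibitor of TRIB3, and the RNA-seq asked which genes change with it. The vehicle given to the RNA-seq controls is not stated in the sources used here. Nothing in the labels says that the samples of a group came from separate cultures, so the p-values measure only the spread between these samples, which may be technical.

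ATF4 is the main effector of the integrated stress response. In that response, kinases that sense amino acid shortage, misfolded protein, heme shortage or viral RNA phosphorylate eIF2alpha, which slows translation in general while the ATF4 mRNA is translated more. ATF4 is a basic leucine zipper (bZIP) protein, and bZIP proteins bind DNA as dimers. C/EBP family members are among its partners, and the genes of ATF3, ATF5, DDIT3 (CHOP), NUPR1 and JDP2 have been placed downstream of it or beside it. The protein of ATF4 is set to a large part by translation, so the mRNA levels given here do not measure it.

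PB-treated cells held more mRNA of 7 genes (ATF4, ATF3, ATF2, DDIT3, CEBPB, CEBPG and JDP2) and less of ATF5, while CEBPD did not pass the test. NUPR1 was also called higher, but it passed the filter only through the group where it was high, so a difference was required of it and it is left out of these counts. The test was edgeR's quasi-likelihood test on the counts, with Benjamini-Hochberg adjustment over the 24200 genes, and a gene was called at an adjusted p of at most 0.05. Of all tested genes, 24.1% were called higher and 26.1% were called lower with PB, so a call alone was common. With library size alone in place of TMM scaling, 61.1% of all calls were higher in place of 48%. The calls over the 9 genes other than NUPR1 were 7 higher and 1 lower either way. By the stricter rule for differentially expressed genes (DEGs), which also asks that the log2 fold change reach 1 in size, 6 of the 9 genes other than NUPR1 were higher and 1 was lower, while 5.36% of all tested genes were higher DEGs and 6.73% were lower DEGs. The median log2 fold change was 1.38 over these 9 genes and 0.011 over all tested genes. In none of the 9 genes other than NUPR1 did the control and PB samples overlap in FPKM. An exact two-sided permutation test gave p = 0.1 for each of these, the smallest that 3 against 3 samples allow. The share of all tested genes without overlap was not computed, so the absence of overlap is given as a description only. Fitted fold changes lie slightly below the ratios of FPKM, because the fit also scales the samples by TMM factors of 0.948 to 0.962 for the control and 1.04 to 1.05 for the PB samples.

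**Figure D1:**
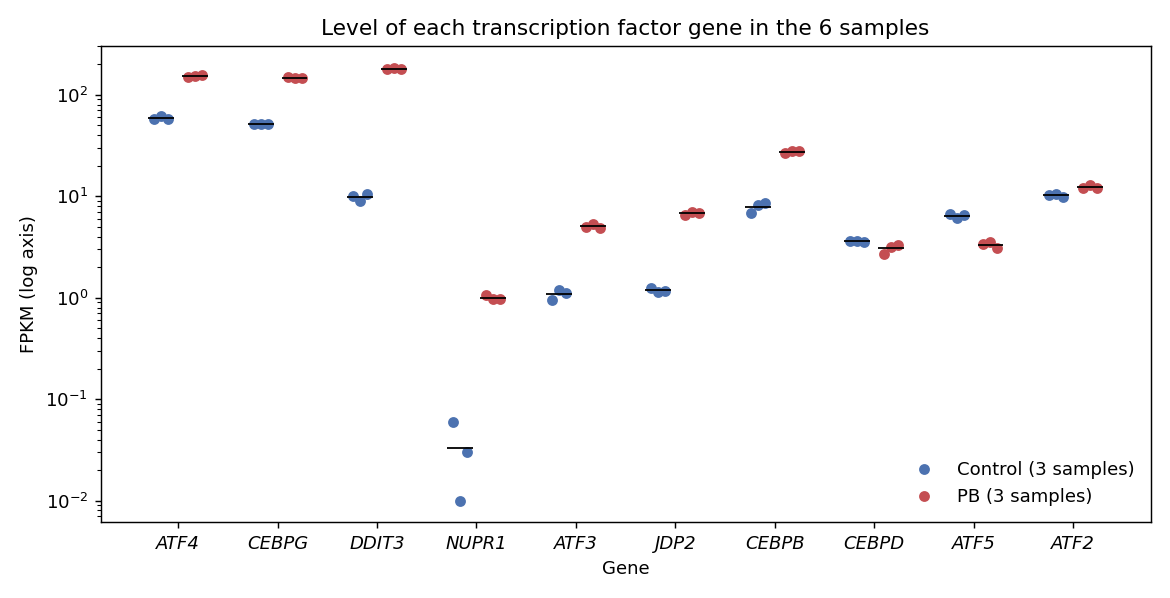
FPKM (log axis) of the 10 genes, with 1 point per sample, control samples in blue, PB samples in red and the mean of each group as a black line. DDIT3 moved from about the FPKM of ATF2 to the highest FPKM of the 10, while only ATF5 and CEBPD had lower points with PB than in the control samples.

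Total counts per sample lay between 15681655 and 21986948, and 3 counts correspond to 0.136 to 0.191 CPM (counts scaled to library size). Replicates differed little, with a median biological coefficient of variation of 6.97%. All 8 markers of MDA-MB-231 were present, but 7 of them were called lower with PB and 1 higher. Their summed level, in which VIM is the largest part, was 1145 to 1173 FPKM in the control and 1063 to 1067 FPKM in the PB samples, and CAV1 had a log2 fold change of -1.16. VIM was called lower at only -0.059 after TMM scaling, while its FPKM was higher with PB. It lay at 591.72 to 615.24 FPKM in the control and 631.79 to 639.36 FPKM in the PB samples. Over all tested genes 26.1% were called lower and 24.1% higher. Of 17 genes of other epithelial cells, 8 were called lower and 1 higher with PB, 4 were not called and 4 were not tested. Their summed FPKM was 447.64 to 453.94 in the control and 160.83 to 166.36 in the PB samples. Most of this sum was KRT18, KRT8 and KRT7. The means of these 3 genes were 286, 107 and 44.5 FPKM in the control and 121, 38.9 and 0.44 FPKM in the PB samples. CDH1 (E-cadherin), which this line is known to lack or nearly lack, had a mean of 3.98 FPKM in the control and 0.0133 FPKM in the PB samples, while ESR1, PGR and GATA3 had means of at most 0.393 FPKM in either group. The summed FPKM was 0.41 to 0.49 in the control and 0.26 to 0.31 in the PB samples over 6 fibroblast markers, of which 1 was called lower, and 0.54 to 0.97 and 0.15 to 0.23 over 5 blood cell markers, of which 2 were called lower. In bulk samples, fewer cells of a type and less RNA per cell cannot be told apart. A set of 113 genes was counted 30 times or more in each control sample but at most 3 times in each PB sample, with 0.178% to 0.181% of the control counts, and 0 of the 10 genes were among them. Without these 113 genes, the calls over the 9 genes other than NUPR1 stood at 7 higher and 1 lower. The part of these differences in the levels of the 10 genes was not tested.

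ATF4 (chr22:39519695-39522683, hg38, plus strand) had 57.96, 61.24 and 57.63 FPKM in control replicates 1, 2 and 3, and 150.43, 152.80 and 155.99 FPKM in PB replicates 1, 2 and 3. The lowest PB sample lay 89.2 FPKM above the highest control sample. Its mean went from 58.94 ± 2.00 to 153.1 ± 2.79 FPKM (SD, n = 3), and the fitted log2 fold change was 1.25 (SE 0.027), or 2.37-fold. The adjusted p was too small to be stored as a number in the edgeR fit, which gave every gene the spread of the trend. A second edgeR fit let each gene have its own spread in part, but still drew it mostly to the trend. With this fit, called a spread per gene below, the adjusted p from edgeR was 7.14e-48, and limma on log2(FPKM + 0.1) gave 3.36e-07. Of the pseudogenes named after ATF4, ATF4P3 had 5 to 9 counts per control and 9 to 13 per PB sample and was not called (edgeR, adjusted p = 0.385). ATF4P1 and ATF4P2 had 0 counts in every sample, and ATF4P4 had at most 2.

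CEBPG, a C/EBP family member that lacks a canonical activation domain and forms dimers with ATF4 and with other C/EBPs, stood beside ATF4 in both groups. CEBPG (chr19:33373685-33382686, plus strand) had 51.85, 51.91 and 51.28 FPKM in the control samples and 148.25, 147.00 and 147.09 FPKM in the PB samples. These were the tightest replicates of the 3 most abundant genes, with means of 51.68 ± 0.348 and 147.4 ± 0.697 FPKM (SD, n = 3). Its log2 fold change was 1.38 (SE 0.025), with an adjusted p of 1.64e-53 from edgeR with a spread per gene. The ratio of CEBPG to ATF4 was 0.877 ± 0.026 in the control and 0.963 ± 0.021 with PB (SD, n = 3), with no overlap between groups (exact permutation test, two-sided, p = 0.1).

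DDIT3 encodes CHOP, a C/EBP homologous protein that dimerises with C/EBPs and is known for its role in cell death under lasting stress. DDIT3 (chr12:57516588-57521737, minus strand) had 10.13, 9.07 and 10.58 FPKM in the control samples and 178.74, 185.40 and 180.20 FPKM in the PB samples. Every PB sample lay at least 168 FPKM above every control sample. The mean went from 9.927 ± 0.775 to 181.4 ± 3.50 FPKM (SD, n = 3), and the log2 fold change was 4.05 (SE 0.046), or 16.6-fold, with an adjusted p of 1e-63 from edgeR with a spread per gene. By log2 fold change DDIT3 ranked 64 of the 24200 tested genes. Relative to ATF4, DDIT3 mRNA was at 0.169 ± 0.019 in the control and 1.19 ± 0.029 with PB (SD, n = 3), 7.02 times higher.

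Other annotated genes lie over DDIT3, and the strandedness of the counting is not given in the sources used here, so reads in the shared stretches cannot be told apart. MIR616, a microRNA gene inside DDIT3 on the same strand, had 1, 3 and 3 counts in the control and 44, 30 and 55 counts in the PB samples. On the opposite strand, MARS1, the cytosolic methionyl-tRNA synthetase gene, overlaps one end of DDIT3 and had a log2 fold change of 0.95, and MBD6, a methyl-CpG-binding domain gene, overlaps the other end and had a log2 fold change of 1.22. Both were called higher, and both changed less than DDIT3.

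NUPR1, a small stress-induced chromatin protein, was close to absent in the control cells. NUPR1 (chr16:28532708-28539008, minus strand) had 5, 1 and 4 counts in the control and 93, 83 and 102 counts in the PB samples. In FPKM the means were 0.033 ± 0.025 and 1.00 ± 0.053 (SD, n = 3), and the table gives it an exonic length of 5508 bases, by which the FPKM is divided. Summed over each group, 278 counts with PB stood against 10 in the control, a ratio of 27.8 with a 95% interval from 14.9 to 58.7 that covers counting error only. The fitted log2 fold change was 4.75 (SE 0.304), given as a description with no test. Since the control level rests on 10 counts, this value depended on single samples and ranged from 4.37 to 5.23 over the alternative fits on counts.

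**Figure D2:**
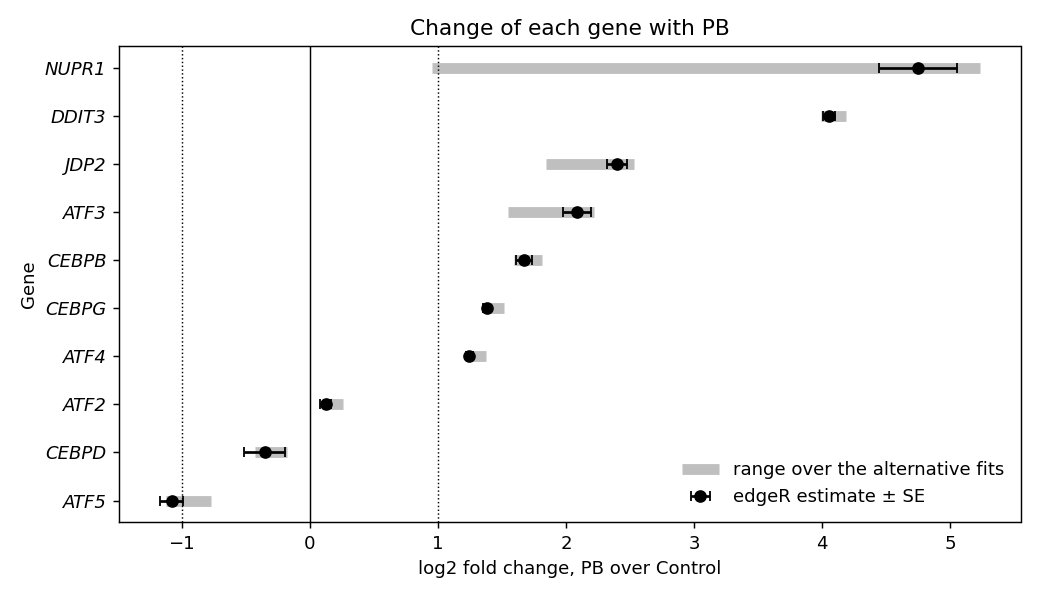
log2 fold change of PB over control for each of the 10 genes, as the edgeR estimate ± SE (black) and as the range over the alternative fits (grey bars), with dotted lines at a size of 1. NUPR1 has the widest bar, from 0.95 to 5.23, because a pseudocount of 1 FPKM exceeds its control level, and the bar of ATF5 reaches across the dotted line.

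ATF3 and JDP2 are close relatives that bind the same DNA sites and often act as repressors, and both were low in the control and several times higher with PB. ATF3 (chr1:212565334-212620777, plus strand) had 0.94, 1.18 and 1.11 FPKM in the control samples and 4.99, 5.38 and 4.82 FPKM in the PB samples. Its log2 fold change was 2.09 (SE 0.108), or 4.25-fold (edgeR, adjusted p = 4.49e-82, or 1.33e-27 with a spread per gene). JDP2 (chr14:75427716-75474111, plus strand) had 1.25, 1.13 and 1.16 FPKM in the control samples and 6.56, 7.0 and 6.85 FPKM in the PB samples. Its log2 fold change was 2.40 (SE 0.078). The adjusted p from edgeR was 8.62e-203, or 2.17e-38 with a spread per gene, the form given for ATF4, CEBPG and DDIT3. The 2 genes overlapped in level in the control, while with PB every JDP2 value was above every ATF3 value. The ratio of ATF3 to JDP2 was 0.918 ± 0.150 in the control and 0.744 ± 0.035 with PB (SD, n = 3), and the groups overlapped (exact permutation test, two-sided, p = 0.3).

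JDP2-AS1, the antisense gene at the start of JDP2, had 21, 20 and 29 counts in the control and 90, 94 and 123 counts in the PB samples, a log2 fold change of 2.13 (edgeR, adjusted p = 1.72e-27). Without known strandedness its reads cannot be told apart from those of JDP2 where the genes overlap.

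CEBPB, an activator of acute phase, differentiation and senescence genes, rose, while its paralogue CEBPD did not. CEBPB (chr20:50190830-50192668, plus strand) had 6.80, 8.22 and 8.48 FPKM in the control samples and 26.97, 28.05 and 27.69 FPKM in the PB samples. Its log2 fold change was 1.67 (SE 0.063), with an adjusted p from edgeR of 5.17e-151, or 8.64e-34 with a spread per gene. The antisense CEBPB-AS1 over the same place was not called (edgeR, adjusted p = 0.36). CEBPD, on chromosome 8, had 3.62, 3.59 and 3.56 FPKM in the control samples and 2.72, 3.16 and 3.33 FPKM in the PB samples. The PB samples lay below the control samples by a gap of 0.23 FPKM, and the log2 fold change of -0.35 (SE 0.160) did not pass (edgeR, adjusted p = 0.0536). Without PB replicate 3 it passed, with a log2 fold change of -0.43 and an adjusted p of 0.0416. The ratio of CEBPD to CEBPB was 0.463 ± 0.061 in the control and 0.111 ± 0.010 with PB (SD, n = 3), with no overlap between groups.

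ATF5, which is known for the mitochondrial unfolded protein response and as a stress-translated relative of ATF4, was the gene that fell. ATF5 (chr19:49928702-49933935, plus strand) had 6.61, 6.14 and 6.50 FPKM in the control samples and 3.37, 3.55 and 3.10 FPKM in the PB samples, with no overlap. The adjusted p from edgeR was 1.24e-31, or 1.79e-17 with a spread per gene. Its log2 fold change was -1.08 (SE 0.091), so it was a DEG by a small margin. With library size alone in place of TMM it was -0.95, still called but no longer a DEG. Relative to ATF4, ATF5 mRNA was at 0.109 ± 0.0076 in the control and 0.0218 ± 0.0018 with PB (SD, n = 3). NUP62, a nuclear pore gene on the opposite strand that overlaps ATF5, was also called lower, with 1353 to 1842 counts per control and 935 to 1159 per PB sample and a log2 fold change of -0.61, and its reads in the overlap cannot be told apart from those of ATF5.

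ATF2, a CRE-binding bZIP protein that is activated by stress kinases, changed least among the called genes. ATF2 (chr2:175072250-175168382, minus strand) had 10.30, 10.61 and 9.91 FPKM in the control samples and 11.95, 12.88 and 11.95 FPKM in the PB samples. Its log2 fold change was 0.12 (SE 0.043; edgeR, adjusted p = 0.00918). This small difference did not pass with DESeq2 (adjusted p = 0.0655), without control replicate 3 (edgeR, adjusted p = 0.123) or without PB replicate 2 (edgeR, adjusted p = 0.114), and it was 0.26 with library size alone. With a spread per gene, edgeR gave an adjusted p of 0.0125.

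The order of the genes by FPKM changed with PB. In the control samples ATF4 came first and CEBPG next, followed by ATF2 and DDIT3, which overlapped, then CEBPB, ATF5, CEBPD, JDP2 and ATF3, which overlapped, and NUPR1. In the PB samples DDIT3 came first, above ATF4 and CEBPG, and CEBPB, ATF2, JDP2 and ATF3 followed. ATF5 and CEBPD came next with overlapping values, and NUPR1 was again the lowest. This order depends on the exonic lengths, which are 1307 bases for DDIT3, 2613 for ATF4 and 4056 for CEBPG. By counts DDIT3 lay below ATF4 and CEBPG in every PB sample. In PB replicate 1 the counts were 3711 for DDIT3, 6244 for ATF4 and 9552 for CEBPG. The summed FPKM of the 10 genes was 149.52 to 153.10 in the control and 535.04 to 546.18 in the PB samples. DDIT3 made up 5.92% to 7.04% of this sum in the control and 33.2% to 33.9% with PB, while ATF4 made up 38.4% to 40.0% and 28.0% to 28.8%.

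**Figure D3:**
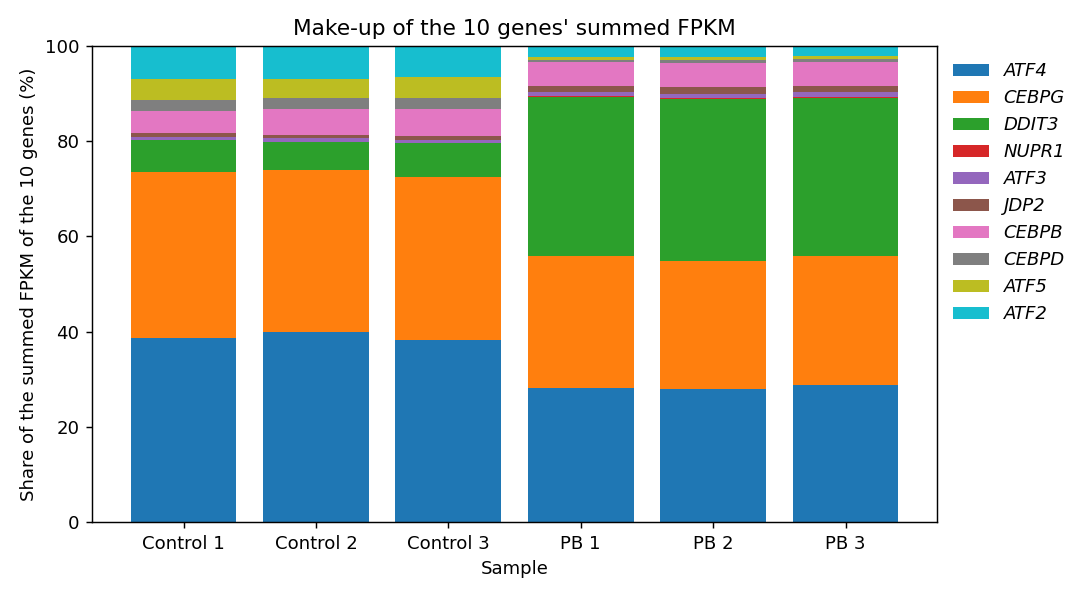
Share (%) of each of the 10 genes in their summed FPKM, with 1 stacked bar per sample. The green part, DDIT3, grew from at most 7.04% in the control to at least 33.2% in the PB samples, and ATF4, CEBPG and DDIT3 together filled most of every bar.

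The promoters of the genes were searched for short bZIP motifs, because genes that move together can carry the same element. RefSeq windows of 300 bases (GRCh38.p14, 250 before and 50 after an annotated start) were found for 7 of the 10 genes, in 16 windows, and ATF2, CEBPD and NUPR1 had no entry. Both strands were searched for TGATGNAA, the core of the C/EBP-ATF response element that ATF4 binds with a C/EBP partner, for TGACGTCA, the CRE, for TGANTCA, the AP-1 site, and for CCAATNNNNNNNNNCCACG, the ER stress element. The C/EBP-ATF core was in 3.62% of all 35116 windows and in 1 window each of ATF3, CEBPG and JDP2. These stretches are shown because they hold that match, in capitals, on the strand of the gene, at chr1:212565157-212565283 for ATF3, chr19:33374011-33374112 for CEBPG and chr14:75427946-75428021 for JDP2.
ATF3: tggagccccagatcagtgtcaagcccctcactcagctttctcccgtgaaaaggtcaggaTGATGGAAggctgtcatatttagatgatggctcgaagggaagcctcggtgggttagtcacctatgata
CEBPG: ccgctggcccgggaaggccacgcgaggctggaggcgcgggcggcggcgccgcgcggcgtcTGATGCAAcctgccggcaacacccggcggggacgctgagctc
JDP2: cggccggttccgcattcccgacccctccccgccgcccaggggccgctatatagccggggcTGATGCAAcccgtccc

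The matches start at position -191 for ATF3, -42 for CEBPG and -16 for JDP2, counted from the annotated RefSeq start. CEBPG and JDP2 hold the same 8 letters, and ATF3 differs from them in the free position. All 3 genes were higher DEGs. DDIT3, ATF4 and CEBPB, which were also higher DEGs, had no C/EBP-ATF core in these windows, which says only that these letters are not there. The AP-1 site was in 7.71% of all windows, in 1 window of ATF5 (at position -188) and in both windows of DDIT3, where it is the same stretch of the chromosome. Of the C/EBP-ATF and AP-1 matches, only that of ATF3 lies before the start of its gene as the table gives it. The CEBPG, JDP2, DDIT3 and ATF5 matches lie inside their genes, since these RefSeq starts are downstream of the start in the table. The ATF5 match is in an annotated UTR. The AP-1 site is shown in capitals to set the gene that rose most in FPKM beside the gene that fell. The stretches are chr12:57520744-57520767 on the minus strand for DDIT3 and chr19:49928706-49928735 on the plus strand for ATF5, the lower DEG.
DDIT3: cgcgcgcgcgcaTGACTCAcccac
ATF5: gggagagtgctgTGACTCAtgctggactct

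The CRE was in 1.85% and the ER stress element in 0.08% of all windows, and in 0 of the 16 windows. No motif match overlapped another in these windows. Among 24 genes of amino acid supply and tRNA charging with a window, described next, 12 held the C/EBP-ATF core, against 4.46% of all 27305 genes in the table. Of 14 signalling and secreted ATF4 targets with a window, 2 held it (14.3%). The 12 include ASNS, SLC1A4, AARS1, CARS1 and GARS1, while PSAT1, PHGDH and MTHFD2 had no match. These shares are descriptions, since genes with several starts have more windows to match in.

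**Figure D4:**
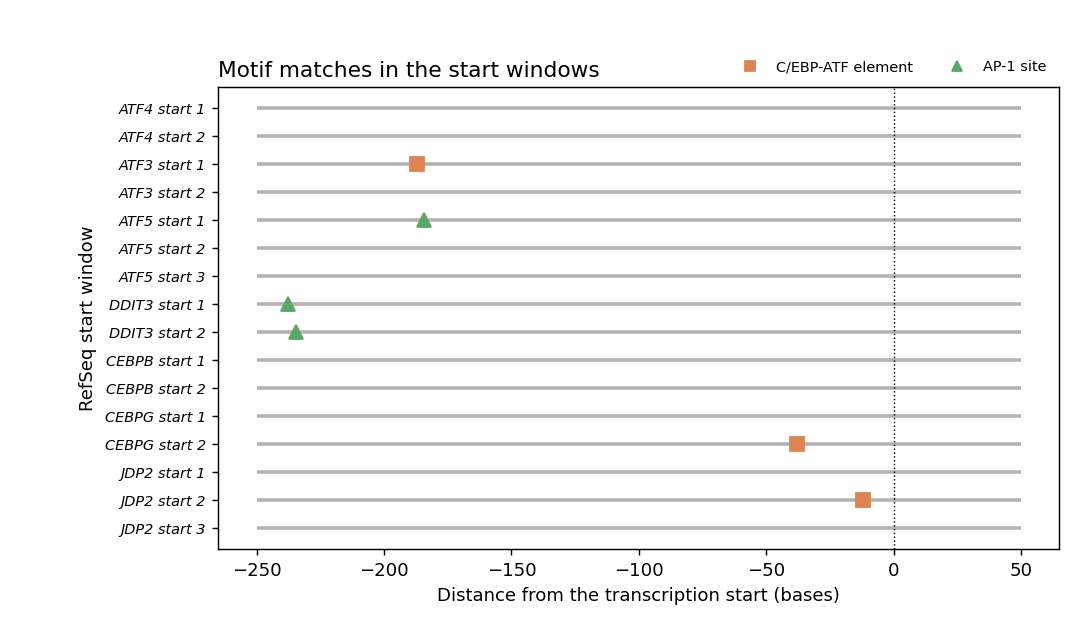
Position of the motif matches in the 16 RefSeq windows of 7 of the genes, in bases from the annotated start of transcription (dotted line), with orange squares for the C/EBP-ATF core and green triangles for the AP-1 site. The C/EBP-ATF core lies nearest the start in JDP2 and CEBPG and farther away in ATF3.

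Genes that ATF4 is known to induce rose with it. The list for amino acid supply and tRNA charging held 31 genes, and all were tested. Of these, 30 were called higher, 16 of them DEGs, and ALDH18A1, which makes a precursor of proline, was called lower at -0.64, with a list median of 1.08 against 0.011 over all tested genes. ASNS, the asparagine synthetase, went from 1.23 ± 0.111 to 16.65 ± 0.575 FPKM (SD, n = 3), which is 3.61 on the log2 scale. SLC6A9, a glycine transporter, had a log2 fold change of 2.66 and ALDH1L2, a mitochondrial folate enzyme, one of 2.41.

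The list of signalling and secreted ATF4 targets held 17 genes, of which FGF21, with at most 1 count in any sample, was not tested. All 16 tested genes were called higher and 12 were DEGs, with a median log2 fold change of 1.89. The largest changes were of CHAC1, which breaks down glutathione, at 4.13, of TRIB3, the pseudokinase that the study targets and a known ATF4 and CHOP target, at 3.53, and of SESN2, which restrains mTORC1, at 3.45. These are mRNA values, and for TRIB3 protein the study's Western blot of these cells found no significant effect of PB. Of all tested genes, 24.1% were called higher and 5.36% were higher DEGs. That both lists rise was known before they were written, so their counts are no independent evidence.

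The genes of the eIF2alpha step upstream of ATF4 showed no common direction. The list holds the eIF2alpha kinases and phosphatase subunits with their regulators, eIF2alpha itself, the subunits of its exchange factor eIF2B, and BTRC, which takes part in the breakdown of ATF4. Of these 17 genes, 4 were called higher (23.5%), 8 lower (47.1%) and 5 were not called, with a median of -0.11. The shares over all tested genes were 24.1% higher and 26.1% lower. PPP1R15A (GADD34), the inducible phosphatase subunit that removes the phosphate and is itself an ATF4 target, went from 8.83 ± 0.483 to 46.57 ± 2.02 FPKM (SD, n = 3), which is 2.27 on the log2 scale. IMPACT, an inhibitor of GCN2, followed with 0.45 and PPP1R15B, the constitutive phosphatase subunit, with 0.23. The largest decreases were of EIF2B3, a subunit of eIF2B, at -0.80, of GCN1, which activates GCN2, at -0.58, and of EIF2S1, which encodes eIF2alpha itself, at -0.55.

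Of 9 genes reported downstream of DDIT3, 6 were called higher, 2 lower and 1 was not called, against 24.1% higher and 26.1% lower of all tested genes. CHAC1, TRIB3 and PPP1R15A, which are also ATF4 targets, rose most. BCL2, an inhibitor of apoptosis, fell with a log2 fold change of -0.84, and ERO1A, an oxidase of the endoplasmic reticulum that CHOP is known to induce, fell with -0.53. Of the BH3-only genes, which promote apoptosis, BBC3 and BCL2L11 were called higher at 0.73 and 0.31. PMAIP1 was at 19.75 ± 0.165 and 20.79 ± 0.738 FPKM (SD, n = 3) and was not called (edgeR, adjusted p = 0.37).

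Mitochondrial chaperones and proteases linked to ATF5 went both ways, with 4 called higher, 6 lower and 1 not called among 11. These are 36.4% and 54.5%, against 24.1% higher and 26.1% lower of all tested genes. The chaperonin genes HSPE1 and HSPD1, which share a promoter, fell with log2 fold changes of -1.54 and -0.67, as did TRAP1 with -0.66. The protease gene LONP1 and the chaperone gene HSPA9 rose with 0.82 and 0.70. SPG7 was called higher at 0.099, but not without control replicate 1 (adjusted p = 0.0647) or PB replicate 1 (adjusted p = 0.0663) in the same edgeR test. Leaving out either sample gave 2 higher genes, so SPG7 was not the only call lost. DNAJA3, also at 0.099, was called by a small margin (edgeR, adjusted p = 0.0484). The count was 3 with DESeq2 and with no expression filter, and 5 with library size alone and with both limma fits.

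**Figure D5:**
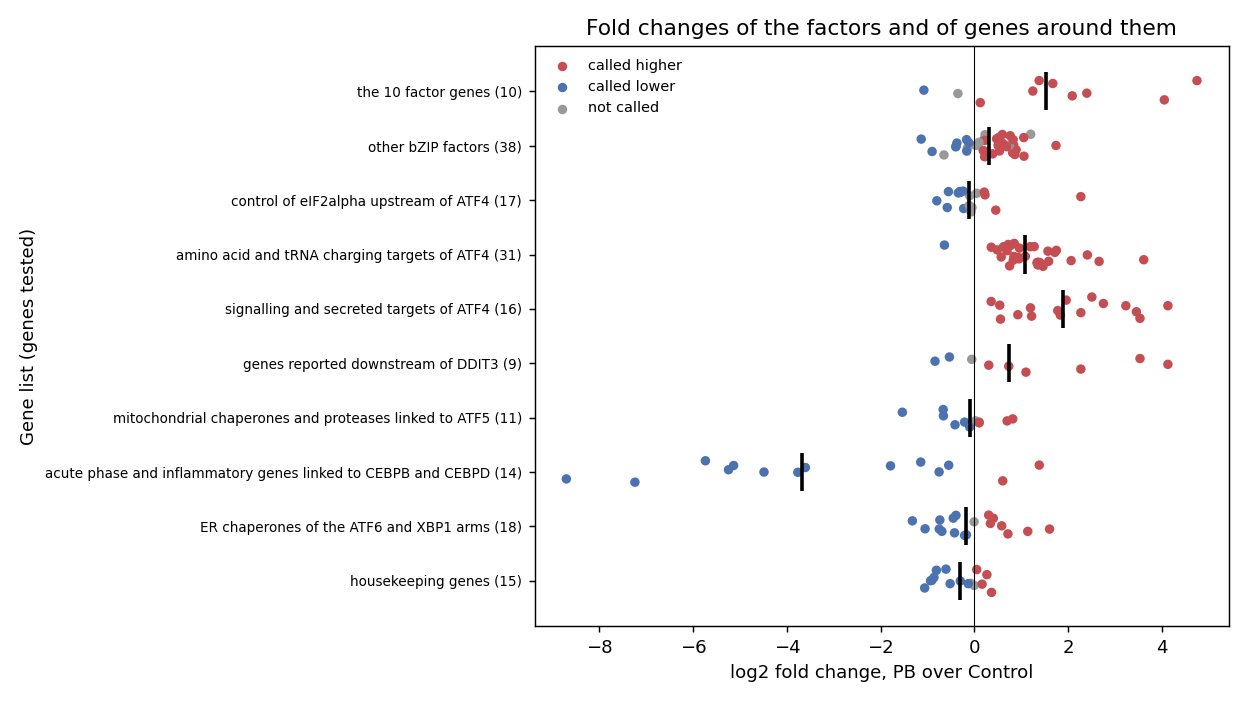
log2 fold change of PB over control for the 10 factor genes and for 9 gene lists, with 1 point per tested gene (red called higher, blue called lower, grey not called) and a black bar at the median of each row. Both lists of ATF4 targets lie almost wholly above 0, while the acute phase and inflammatory genes lie mostly below it.

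Acute phase and inflammatory genes linked to CEBPB and CEBPD mostly fell. Over all tested genes 26.1% were called lower and 6.73% were lower DEGs. Of 19 listed genes 14 were tested, of which 12 were called lower, 10 of them DEGs, and 2 higher. CCL2, SAA1, SAA2 and C3 passed the filter only through the control samples, and without them 8 were called lower, 6 of them DEGs, with a median log2 fold change of -1.47. Over all 14 the median was -3.69, and -2.16 with CCL2, SAA1 and SAA2, which had at most 3 counts in every PB sample, set at their bounds. CXCL8, a neutrophil chemokine, went from 12.46 ± 0.323 to 0.253 ± 0.029 FPKM (SD, n = 3), with a log2 fold change of -5.74. C3, the central complement component, went from 6.76 ± 0.053 to 0.020 ± 0.010 FPKM (SD, n = 3), and SAA1, an acute phase protein gene, was at least 5.76-fold lower, against 3 counts in each PB sample. CXCL2 and SERPINA1 rose instead, with log2 fold changes of 1.38 and 0.60. Beside this list, the summed FPKM of the epithelial genes, mostly KRT18 and KRT8, was lower in every PB sample, as given above. The part of this sum in the result was not tested.

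Genes of the endoplasmic reticulum chaperones, which the ATF6 and XBP1 arms of the unfolded protein response control, did not move as a group. Of 18 tested of 19, 7 were called higher (38.9%) and 10 lower (55.6%), with a median of -0.19. The shares of all tested genes were 24.1% and 26.1%. HERPUD1, a gene of protein degradation at the endoplasmic reticulum, rose most with a log2 fold change of 1.60. HSPA5 (BiP) went from 80.56 ± 0.136 to 194.3 ± 2.59 FPKM (SD, n = 3), with a log2 fold change of 1.14, and HYOU1 followed with 0.71. SDF2L1, PDIA4 and MANF fell with -1.32, -1.05 and -0.75.

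Of 44 other bZIP genes, 38 were tested, of which 23 were called higher, 8 lower and 7 were not called, with a median of 0.31. Over all tested genes 24.1% were called higher and 26.1% lower. Of the 38, 2 genes, NRL among them, passed the filter only through the PB samples. Without these, 22 were called higher and 8 lower, with a median of 0.22. Only MAFG, NFIL3 and NRL were higher DEGs, at 1.06, 1.05 and 1.74. The means of NRL were 0.073 FPKM in the control and 0.263 FPKM with PB. FOSL2, an AP-1 subunit, was the lower DEG at -1.14, followed by NFE2L3 at -0.90. BACH2, at -0.40, lost its call in 7 of the alternative fits. With library size alone, 25 were called higher and 4 lower. No tested gene of this list reached the change of DDIT3, JDP2 or ATF3. Among 15 housekeeping genes, 4 were called higher and 9 lower, with a median of -0.30, and PPIA fell most, with a log2 fold change of -1.06.

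Profiles over the 6 samples were compared by Euclidean distance in log2 CPM, relative to the mean of the controls. Candidates were 13532 other genes with a mean of at least 1 FPKM. The nearest genes were found for each of the 8 DEGs, NUPR1 among them. For ATF4 they were IDH1, AARS1 and OGT, at distances of 0.079, 0.087 and 0.097. CEBPG had GARS1, SARS1 and MTHFD2, at 0.080, 0.083 and 0.085. DDIT3 had CHAC1 at 0.199, the pseudogene ASNSP1 at 0.377 and the unnamed ENSG00000249328 at 0.465. For NUPR1 they were ASNSP1, CHAC1 and DDIT3 at 1.51 to 1.82, distances that its 10 control counts make large against any gene. For JDP2 they were PCK2, VGF and CCND2 at 0.133 to 0.231, for ATF3 ULBP1, LURAP1L and DLGAP1-AS2 at 0.204 to 0.211, and for CEBPB SLFN5, LINC00174 and GTPBP2 at 0.146 to 0.178. ATF5, the lower gene, had MIR600HG, MYCBP and CCNE2 at 0.089 to 0.104. With a single contrast these distances reflect mainly the size of the change.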

How the data were processed

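The 3 control libraries and the 3 PB libraries (20 μM, 24 h) of MDA-MB-231 cells were grouped by their labels, with dose and time as the study's text gives them. The values tested were the raw counts per gene that the authors deposited. The authors deposited FPKM values beside them, and for 100% of these the count, divided by exonic length and total count, gave the same value within 0.005. The submitters' processing notes name HTSeq 0.6.1, Cufflinks 2.2.1, DESeq2 and hg38, and the aligner, the annotation release and the strandedness are not given in the sources used here. Libraries were selected for poly(A) RNA and sequenced in pairs. Columns without a matching sample numbered 0.

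Genes with a mean of at least 0.1 FPKM were tested with edgeR 4.0.16 (R 4.3.3, TMM, quasi-likelihood test, Benjamini-Hochberg adjustment over 24200 genes). In the quasi-likelihood step used (legacy=TRUE), the prior degrees of freedom were infinite, so every gene took the spread of the trend and p-values were very small. With legacy=FALSE they were 58.8, so the spread of each gene was its own only in part and was still drawn mostly to the trend. The legacy=FALSE p-values are given alone where the first were too small, and beside the first for ATF3, JDP2, CEBPB, ATF5 and ATF2. DESeq2 1.42.0, limma 3.58.1 (trend, on log2(FPKM + 0.1) or log2(FPKM + 1)), other filters and scalings, the replicate block and leaving out each sample were alternatives, and the fit without genes counted only in the controls was added after the data were examined. Scripts were tested on simulated data.

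The 10 genes, the 9 gene lists, the cell type markers and the tests were chosen with earlier results of these data known. The rule for named genes covers the 10 genes, the 3 called genes with the largest change in each direction in each list, the 3 nearest profiles of each DEG among the 10, and rows that overlap a member or are named as its pseudogene. Other genes are counted only, except CDH1, VIM, CAV1, KRT7, KRT8, KRT18, CCL2, SAA2, PMAIP1, BBC3, BCL2L11, BTRC, DNAJA3, FGF21 and the motif examples, which were chosen after their values were seen. Promoter windows came from RefSeq on GRCh38.p14.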

Additional observations from a re-analysis of the deposited data

How the results depend on the processing

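The 10 genes kept their direction in every alternative fit that gave them a value, and 8 of them also kept their side of the threshold. The others were ATF2, which lost its call in 3 fits, and CEBPD, which gained one without PB replicate 3. NUPR1, of which the filter required a difference, was not tested with a mean of at least 1 FPKM. Over the fits that left out 1 sample, the 10 genes held 1 to 2 called lower, and the list linked to ATF5 held 2 to 4 called higher. The lower DEG ATF5 was lost, leaving 0, with library size alone and with either limma fit. It was also lost with a DEG line of 2 on the log2 scale, at which ATF3, DDIT3 and JDP2 were left as higher DEGs, besides NUPR1.

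Over all genes there were 1296 higher and 1629 lower DEGs. The numbers were 608 and 769 with a mean of at least 1 FPKM, 329 and 496 with limma on log2(FPKM + 1), and 259 and 627 with the DEG line at 2. By construction fewer genes, or smaller fitted changes, enter these fits, or a higher line is set. Library size alone moved the median log2 fold change by 0.127 and gave 7679 higher and 4879 lower calls in place of 5829 and 6322, with 1809 and 1336 DEGs, so that 61.1% of calls were higher in place of 48%, and limma on log2(FPKM + 0.1) gave 60.3%. The other bZIP list had 4 called lower in place of 8 with library size alone and with both limma fits. The list downstream of DDIT3 had 1 called lower with a mean of at least 1 FPKM, since BCL2 was then not tested.

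The replicate numbers did not pair the samples. The correlations of deviations between same-numbered samples were 0.002, 0.045 and -0.023. A replicate block gave 5726 higher and 6231 lower calls, with 1206 and 1547 DEGs. Among the 9 genes other than NUPR1, it gave 7 higher and 1 lower. Depth limits NUPR1 most, with 10 control counts.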
